A study of Mus musculus with 2 samples.

Results

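The genes described here are the interleukins, the secreted messengers that white blood cells and many tissue cells use to call, feed and restrain each other, and the receptors that receive them. They were taken as every non-control probe whose deposited gene name begins with Il and a digit, which gave 97 probes for 71 genes of the 11142 genes on the array. The description that comes with each probe divided them into 34 ligands with 40 probes and 34 receptors with 53 probes. The remaining 3 genes are described apart: Il1rn, an antagonist of IL-1, Il6st, the signal transducer shared by receptors of the IL-6 family, and Il4i1, an enzyme named for its induction by IL-4.

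RNA came from what the labels call isolated Sertoli cells, the nurse cells of the seminiferous tubule, of adult male Swiss mice at 3 months of age. The control preparation came from mice given no treatment, and the other from mice given busulphan at 25 mg/kg body weight 1 month earlier. Busulphan is an alkylating drug that depletes germ cells, and the study asked how the Sertoli cell profile differs after it. Testes were digested in 2 enzyme steps, the clumps held back by the finer of 2 strainers were taken as Sertoli cells without culture, and total RNA was labelled with Cy3 and hybridised to 1 single-colour array per group. The number of animals behind each preparation is not stated in the labels. With 1 array in each group there is no replicate check and no test, so every difference given here compares these 2 libraries, and preparation, labelling and group cannot be told apart.

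Most interleukins signal through surface receptors built from a chain that recognises the ligand and a shared chain that carries the signal inward. IL-1 family receptors act through MyD88 and IRAK kinases to NF-kB, IL-17 receptors through the adaptor encoded by Traf3ip2, and nearly all the others through JAK kinases and STAT transcription factors, with SOCS proteins as feedback brakes. In the testis, IL-1 alpha and IL-6 are known products of Sertoli cells, and IL-1, IL-6 and IL-10 are also made by the macrophages between the tubules.

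The busulphan library held more RNA for many interleukin receptors and for a few classical inflammatory ligands, and less for 7 other ligands. Those 7 are 31.8% of the ligands compared, near the 29.5 percent of all genes that were lower. Among them, 4 are from the family of lymphocyte growth factors that signal through the common gamma chain. Il2, Il21 and Il17a of the 7 were above background on the control array alone, so their side was set in advance. The receptors Il1rl1, Il10rb, Il1r1, Il1r2, Il4ra and Il17ra and the ligands Il1a, Il10 and Il6 each stood at least 9-fold higher after busulphan. Il4i1, Il20ra, Il11, Il31ra and Il9 were each at least 8-fold lower. These sizes hold for the processed signals. Normexp background correction adds an offset and so shrinks dim genes. With it the higher genes had log2 ratios of 4.02 for Il10rb, 3.30 for Il1r1, 2.87 for Il4ra and 2.71 for Il6. The rest were 2.60 for Il1a, 2.53 for Il1rl1, 2.38 for Il17ra, 1.57 for Il10 and 1.46 for Il1r2. The lower genes had -4.49 for Il4i1, -2.21 for Il20ra, -2.14 for Il11, -1.86 for Il31ra and -1.14 for Il9. Size alone decided a call, a difference of at least 2-fold either way after each array was scaled to its 75th percentile. Of the 54 member genes that were well above background on at least 1 array, 21 were higher in busulphan and 11 were lower. The other 22 were called neither way, some of them through bounds under 2-fold. That is 38.9% higher and 20.4% lower, where 31.3 percent of all 9441 genes compared were higher and 29.5 percent were lower. The median log2 ratio, busulphan over control, was 0.50 for the members and 0.07 for all genes.

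Ligands and receptors differed in this count. Of 29 receptors compared, 13 were higher (44.8%), 3 lower (10.3%) and 13 called neither way. Il13ra2, Il2ra, Il7r, Il2rg and Il5ra are among these last through bounds, which do not place them within 2-fold. The median log2 ratio of the receptors was 0.89, the bound of Il7r. With measured values in place of bounds, 16 receptors were higher and 4 lower, and the median was 1.49. Of 22 ligands compared, 6 were higher (27.3%), 7 lower (31.8%) and 9 called neither way, Il22 among them through a bound. The ligand median was 0.13. Both ligand shares lay near those of all genes. Of the 54 members, 14 passed the filter on 1 array only, the one on which they were bright, so their side was set by the filter. Among genes above background on both arrays, 12 of 23 receptors were higher and 3 lower, and 3 of 15 ligands were higher and 4 lower, beside 32.5% and 28.8% of all genes. When the arrays were scaled to 6 spike-in probes in place of the 75th percentile, the median of all genes shifted by -0.88. With this scaling 16.1% of genes were higher and 46.4% lower, and the medians became 0.00 for receptors and -0.75 for ligands. The 0.00 is the value of Il13ra2, Il2ra and Il7r. These are bounds that no longer pointed higher and were set to no change, so it is not a measured ratio. With spike-in scaling Il15, Il16, Il22ra1, Il27, Il2rg, Il3ra and Il5ra also counted as lower. The difference between receptors and ligands was not tested, since genes are not replicates. In bulk RNA of this kind, fewer cells of a type and less RNA per cell cannot be told apart.

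**Figure D1:**
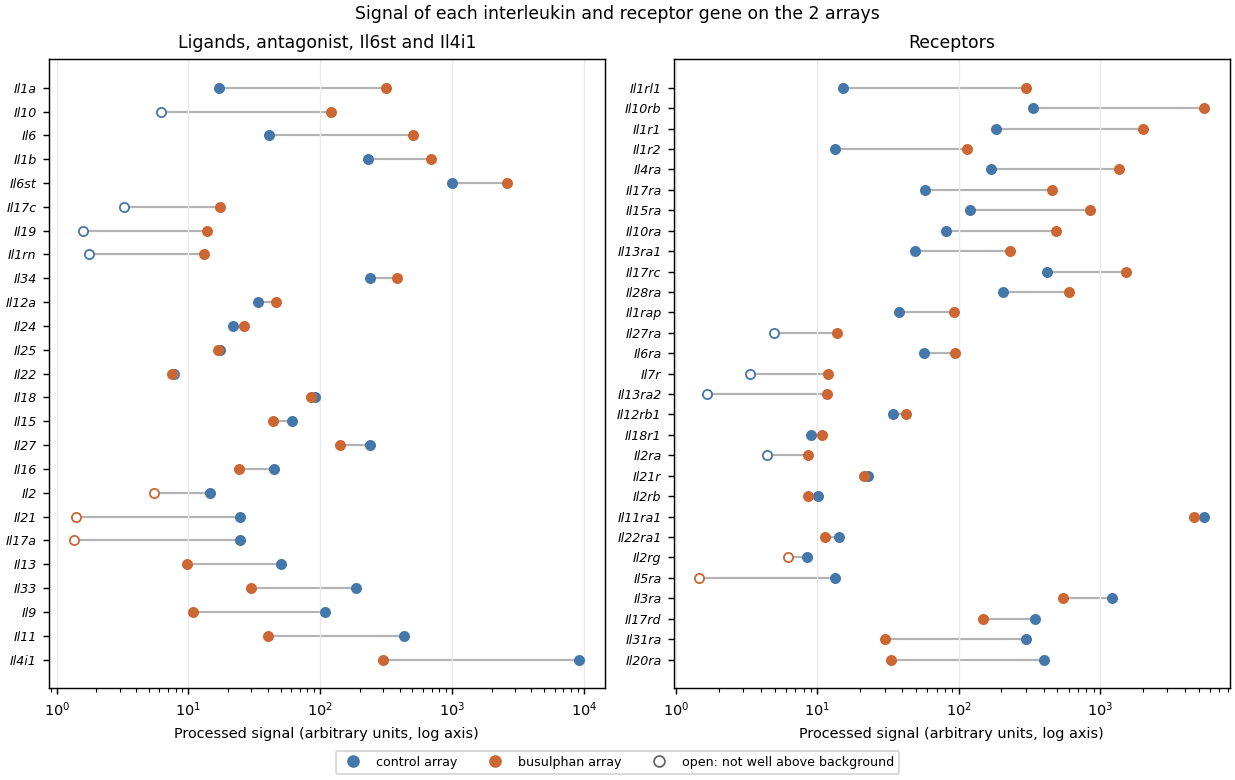
Processed signal of each of the 54 compared genes on the control array (blue) and the busulphan array (orange), on a log axis, with ligands and the 3 genes described apart on the left and receptors on the right, ordered by their ratio. Open points were not well above background. Il1rl1 heads the receptors and Il1a the ligands, and Il4i1 and Il20ra stand at the bottom.

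Many members were dim. On the control array 54 of the 97 member probes (55.7%) were well above background, and on the busulphan array 63 (64.9%), against 80.9% and 79.3% of all 15208 probes. No member spot was saturated. By gene, 40 were above background on both arrays, 5 on the control array alone, 9 on the busulphan array alone and 17 on neither. The 17 included the T helper cytokines Il3, Il4 and Il5, the lymphocyte growth factor Il7, the shared subunit Il12b of IL-12 and IL-23, and the receptor chains Il12rb2, Il23r and Il9r. They also included 4 minor IL-1 family members, Il1f5, Il1f6, Il1f9 and Il1f10, counted as ligands by their descriptions and not by known action. The others were Il17b, Il18rap, Il20, Il22ra2 and Il28b. A gene seen above background on 1 array only has a bound in place of a ratio, and is written as at least so many fold.

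IL-1 family ligands showed both directions. Il1a, which encodes IL-1 alpha, had a signal of 17.1 in control and 314 in busulphan, a log2 ratio of 4.41 ± 0.24, where the error is the scanner software's own estimate for the 2 spots and covers no difference between preparations. Il1b, the form that caspase-1 must cut before it acts, had 230 in control and 698 in busulphan, a log2 ratio of 1.81. Il33, a nuclear alarm signal released by damaged cells, ran the other way, with 188 in control and 29.9 in busulphan, a log2 ratio of -2.44. Il18, the relative that drives interferon gamma, had 91.3 and 85.5, a log2 ratio of 0.11. The antagonist Il1rn, which occupies the IL-1 receptor without signalling, was not well above background in control (1.75) and had 13.0 in busulphan, at least 2.01-fold higher. Under spike-in scaling Il1b (0.93) and Il1rn (0.12) no longer reached 2-fold.

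IL-1 family receptors had the highest median among the ligand and receptor groups of the families, 3.33 on the log2 scale over the 5 compared. Of these, 4 were higher (80.0%) and none lower, beside 31.3 and 29.5 percent of all genes. Il1rl1, the receptor for IL-33, had a signal of 15.1 in control and 301 in busulphan, a log2 ratio of 4.53 ± 0.26. Il1r1, the signalling receptor for both forms of IL-1, had 185 in control and 2009 in busulphan, a log2 ratio of 3.65. Il1r2, a decoy that binds IL-1 and gives no signal, had 13.2 and 115, a log2 ratio of 3.33. Decoy and signalling receptor thus stood on the same side. Il1rap, the shared accessory chain, had 38.1 and 92.4, a log2 ratio of 1.49, which came to 0.60 under spike-in scaling. It has 4 probes. Another measured probe gave 0.91, under 2-fold, and the rest were not well above background on either array. Il18r1, the receptor for IL-18, had 8.99 and 10.8, within 2-fold.

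The 3 probes of Il1rl1 are shown because they read different transcripts. The gene makes a long membrane receptor and a short soluble form that traps IL-33, named in the probe descriptions as transcript variants 1 and 2. Positions are those of the deposited files on mm9, and the first 30 bases of each probe are given.
Il1rl1, variant 1, chr1:40521952-40522011: tgaccttatttgcttaccagttacaggtaa
Il1rl1, variant 2, chr1:40504769-40504828: ctctgtaacaggatcttttgtctagatttc
Il1rl1, both variants, chr1:40498342-40499204: cagaagccccaacttgaataagactggata
The probe for variant 1 carried the 4.53 given above. The probe for variant 2 was not well above background in control (1.65) and had a signal of 19.1 in busulphan, a bound of at least 2.94-fold. The third probe, which crosses an intron and matches both variants, was not well above background on either array, at 4.05 in control and 1.42 in busulphan. No probe for the stretch that both forms share was thus above background.

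Il1a has 2 probes, and the sequences show why both are of use, since the first crosses an intron and so reads spliced RNA.
Il1a, chr2:129128725-129130459: tggacaaacactatctcagcaccacttggt
Il1a, chr2:129125994-129126053: aatgccagttgagtaggataaaggtataag
The intron-crossing probe had a signal of 19.3 in control and 239 in busulphan, a log2 ratio of 3.84, beside 4.41 for the other. As folds these are 14.3 and 21.3, higher in busulphan on both probes.

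In the IL-6 family, 3 of 8 genes compared were higher (37.5%) and 2 lower (25.0%), near the shares of all genes. Il6 itself, the acute-phase cytokine, had a signal of 40.9 in control and 505 in busulphan, a log2 ratio of 3.84 ± 0.21. Its shared transducer gp130, encoded by Il6st, had 998 and 2615, 3.03-fold higher. The IL-6 binding chain Il6ra had 57.2 and 94.2 on the probe that stands for the gene, a log2 ratio of 0.93, and 1.76 on the other. Il27ra, a receptor chain for IL-27, was not well above background in control (4.90) and had 13.8 in busulphan, at least 2.13-fold higher. Il6st (0.72) and Il27ra (0.21) came under 2-fold with spike-in scaling.

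The 2 lower genes of the family were a ligand and a receptor. Il11, which supports stroma and platelet precursors, had 432 in control and 39.9 in busulphan, a log2 ratio of -3.23. Il31ra, which pairs with the oncostatin M receptor to receive IL-31, had 302 and 30.1, a log2 ratio of -3.12. The IL-11 receptor Il11ra1 had 5474 and 4655, a log2 ratio of -0.03 on one probe and 0.06 on the other, and its probes also match the near copy Gm13305. Il11 was thus lower while its receptor lay near 0. Il27 had 237 and 141, a log2 ratio of -0.54.

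In the IL-10 family, 5 of 9 genes compared were higher (55.6%) and 1 lower (11.1%), beside 31.3 and 29.5 percent of all genes. Il10 and Il19 are among the 5 through the busulphan array alone. Il10, the anti-inflammatory cytokine, was not well above background in control (6.22) and had a signal of 121 in busulphan, at least 18.6-fold higher. Its receptor chains stood on the same side: Il10rb had 338 in control and 5415 in busulphan, a log2 ratio of 4.21, and Il10ra had 81.2 and 492, a log2 ratio of 2.81. Il28ra, the receptor chain for interferon lambda that pairs with Il10rb and is now called Ifnlr1, had 207 and 601, a log2 ratio of 1.75. Il19, a relative of IL-10, was at least 2.13-fold higher, from 1.58 to 13.8. Il28ra (0.86) and Il19 (0.21) dropped under 2-fold with spike-in scaling.

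Il20ra, a receptor chain for IL-19, IL-20 and IL-24, was the lower gene of the family, with 400 in control and 33.1 in busulphan, a log2 ratio of -3.39. Il22ra1, which receives IL-22, had 14.3 and 11.3, a log2 ratio of -0.14. Il24 had 21.8 and 26.4, a log2 ratio of 0.48. Il22 had 7.79 in control, not well above background, and a spot above background in busulphan with a bound of at least 1.11-fold, and its probe also matches the near copy Iltifb.

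Of the IL-17 family, 3 of 6 genes compared were higher and 2 lower, beside 31.3 and 29.5 percent of all genes. The lower share lay near that of all genes. Il17c, higher, and Il17a, lower, were each seen on 1 array only, so their side was set by the filter. The called genes seen on both arrays were Il17ra and Il17rc, higher, and Il17rd, lower. Il17ra, the common receptor chain, had a signal of 57.97 in control and 455 in busulphan, a log2 ratio of 3.18, and Il17rc, its partner for IL-17A and IL-17F, had 421 and 1531, a log2 ratio of 2.07. The second probes of these genes gave 3.09 and 2.24. Il17a, the T cell product that they receive, was seen in control alone, with 24.6 against 1.36 in busulphan, at least 3.41-fold lower. Il17c, an epithelial ligand, was at least 2.68-fold higher, from 3.26 to 17.4, but 0.54 on the log2 scale under spike-in scaling. Il25, which drives type 2 responses, had 17.5 and 16.9.

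Il17rd, a receptor-like brake on growth factor signalling, has 3 probes that disagreed. Their first 30 bases and mm9 positions are these.
Il17rd, cDNA clone, chr14:27902088-27902147: gaagttatataggttaaggctggcaaacct
Il17rd, first probe of the reference transcript, chr14:27913180-27913239: agaagcagtttatacccttccaacatcccc
Il17rd, second probe of the reference transcript, chr14:27915594-27915653: tatgaatgaatcttgtacagaaattctgtt
The probe from the cDNA clone, which stands for the gene, had 344 in control and 148 in busulphan, a log2 ratio of -1.01. The first probe of the reference transcript had 339 and 28.5, a log2 ratio of -3.36. The second was not well above background on either array. Both measured probes put Il17rd lower in busulphan, by sizes that differed.

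The common gamma chain family is named for the receptor subunit that its members share. None of its 5 compared ligands was higher and 4 were lower (80.0%), beside 29.5 percent of all genes lower. Of these 4, Il2 and Il21 entered through the control array alone. With normexp correction Il9 (-1.14) was the ligand that stayed lower, while Il13 (-0.49) and Il21 (-0.22) did not reach 2-fold. The bound of Il2 then no longer pointed lower and was set to no change (0.00). Of 9 compared receptors 3 were higher (33.3%), near the share of all genes, and none was lower. Il9, a mast cell and T cell factor, had 108 in control and 10.8 in busulphan, a log2 ratio of -3.11. Il13, the type 2 cytokine of epithelia, had 50.8 and 9.83, a log2 ratio of -2.16. Il21, which helps B cells mature, was at least 3.41-fold lower, from 24.6 to 1.40. Il2, the T cell growth factor, had 14.5 in control and 5.46 in busulphan, a bound that lies at the 2-fold threshold itself and came to -0.76 with quantile normalization.

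The 3 higher receptor chains were Il4ra, Il13ra1 and Il15ra. Il4ra, which receives IL-4 and IL-13, had 170 and 1362, a log2 ratio of 3.21. Il13ra1, its partner for IL-13, had 49.1 and 233, a log2 ratio of 2.45, with 2.52 on a second probe. Il15ra, which presents IL-15 to neighbouring cells, had 121 and 853, a log2 ratio of 3.03. The shared chain Il2rg itself was dim, with 8.46 in control and a busulphan spot not well above background, at least 1.17-fold lower. Il2rb had 10.2 and 8.59, a log2 ratio of -0.03, and Il21r had 22.9 and 21.6, a log2 ratio of 0.12. Il2ra, Il7r and Il13ra2, a decoy for IL-13, were seen above background in busulphan alone, with bounds under 2-fold.

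The 2 probes of Il15ra both cross an intron and are shown whole, with the 17 bases they share in capitals.
Il15ra, chr2:11645225-11652211: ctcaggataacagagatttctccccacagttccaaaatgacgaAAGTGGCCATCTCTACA
Il15ra, chr2:11645753-11652254: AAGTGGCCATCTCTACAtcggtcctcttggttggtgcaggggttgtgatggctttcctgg
Because they overlap, they are not independent readings. The first gave a log2 ratio of 2.77 and the second 3.03. The ligand Il15 had 61.0 in control and 43.7 in busulphan on its main probe, a log2 ratio of -0.27, and its other probe was seen in busulphan alone, at least 2.56-fold higher, so no direction is given for Il15.

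The remaining families were small. Il12a, a subunit of IL-12, had 34.0 and 45.8, and Il12rb1, a receptor chain for IL-12 and IL-23, had 34.3 and 42.6, both within 2-fold. Il3ra, the IL-3 receptor, had 1212 in control and 547 in busulphan, a log2 ratio of -0.94, just inside 2-fold, and -1.11 when scaled by the median. Il5ra, the eosinophil receptor, was seen in control alone, at 13.4 against 1.46, with a bound of at least 1.85-fold lower (log2 -1.06 when scaled by the median). Il34, a second ligand of the macrophage receptor Csf1r, had 241 and 385, a log2 ratio of 0.89, and Il16, a ligand of CD4, had 44.4 and 24.3, a log2 ratio of -0.66. Il4i1, a secreted oxidase of aromatic amino acids, had the lowest ratio of the members, with 9253 in control and 300 in busulphan, a log2 ratio of -4.74. Its probe also matches Il4i1b, the read-through form that starts in the neighbouring gene, so the 2 cannot be told apart.

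**Figure D2:**
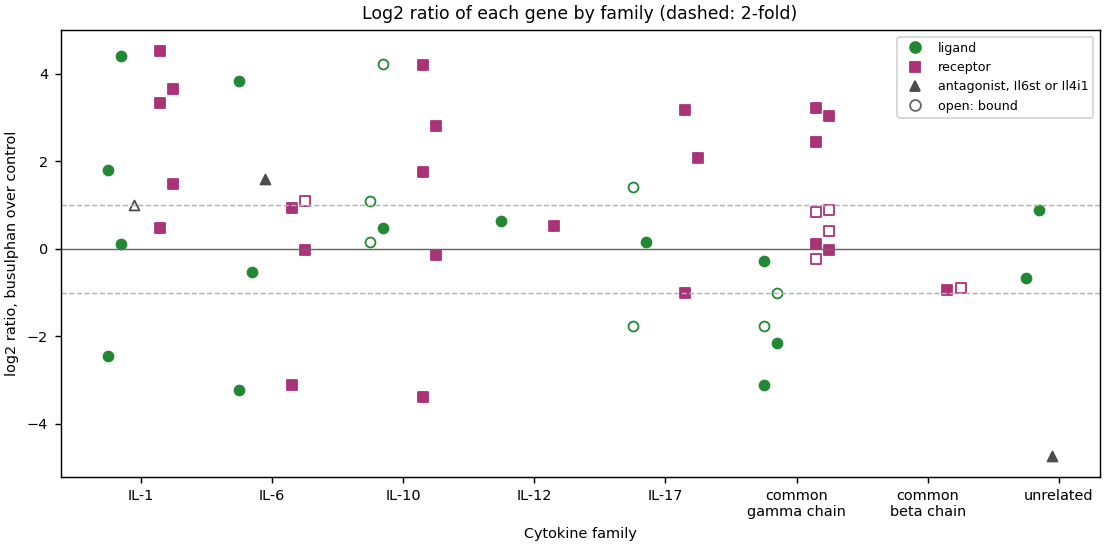
Log2 ratio of busulphan over control for each compared gene, by cytokine family, with ligands as circles, receptors as squares and the 3 genes described apart as triangles. Open symbols are bounds and dashed lines mark 2-fold. IL-1 family receptors reach 4.53, while the common gamma chain ligands lie at or below -0.27.

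Pairs of ligand and receptor can be read side by side. For IL-1 alpha, IL-6 and IL-10, the ligand and at least 1 chain of its receptor were higher in busulphan. For IL-33, IL-13 and IL-17A the ligand was lower and the receptor higher: -2.44 for Il33 beside 4.53 for Il1rl1, -2.16 for Il13 beside 2.45 for Il13ra1, and at least 3.41-fold lower for Il17a beside 3.18 for Il17ra. Il10 and Il17a were each above background on 1 array only, so their side was set by the filter. The 4.53 is that of the variant 1 probe of Il1rl1, whose probe for both variants was not well above background on either array. For IL-11, the ligand was lower with its receptor within 2-fold. With dim signals corrected by the normexp method, 10 called members no longer reached 2-fold on the log2 scale: Il13 (-0.49), Il17a (-0.26), Il21 (-0.22), Il2 (0.00), Il17rd (-0.80), Il17c (0.50), Il19 (0.46), Il1rn (0.39), Il27ra (0.37) and Il1rap (0.87). The 0.00 of Il2 stands for a bound that no longer pointed lower and was set to no change. By the normexp method Il33 (-1.34), Il9 (-1.14), Il1rl1 (2.53), Il1a (2.60) and Il10 (1.57) still passed 2-fold.

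Neighbouring genes did not always share a direction. Members whose probes lay within 200 kb of each other formed 12 groups with 33 genes. Over all genes compared, 31.3% were higher and 29.5% lower. On chromosome 1 the receptors Il1r2, Il1r1, Il1rl1, Il18r1 and Il18rap lie between 40168971 and 40605788 (mm9), and 3 of the 4 compared were higher. Further along, Il24, Il20, Il19 and Il10 lie between 132778780 and 132921002, with 2 of 3 higher. Those 2, Il10 and Il19, were above background in busulphan alone, so their side was set by the filter. Il1a and Il1b, between 129125994 and 129190406 on chromosome 2, were both higher, and Il2 and Il21, between 37024495 and 37122194 on chromosome 3, were both lower. Il2 and Il21 were above background in control alone, so their side too was set by the filter. A single group held both directions, Il6st and Il31ra on chromosome 13, between 113296586 and 113313517, where the first was 3.03-fold higher and the second 8.67-fold lower.

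Where a gene had several probes, these mostly ran alike. Of 20 genes with several probes, 14 had at least 2 that could be compared, and 12 of these had the same sign on every such probe. The exceptions were Il15 and Il11ra1, the latter with values near 0. In 5 of the 14 genes, Il1rl1 and Il10rb among them, a probe gives a bound, so its distance from the other is not a measured difference. Over the 9 genes with at least 2 measured probes the median spread was 0.26 on the log2 scale, and the widest was that of Il17rd, 2.35. The Il10rb probe at 4.21 lies at chr16:91425892-91425951 and reads the reference transcript. The other lies at chr16:91414583-91414642, comes from an ovary cDNA described as unclassifiable, and was at least 3.01-fold higher, from 2.93 to 19.5.
Il10rb, reference transcript: ccatgcgggacagacatgaacattttggat
Il10rb, ovary cDNA: aaacaataggattggaataatcctaaattt

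**Figure D3:**
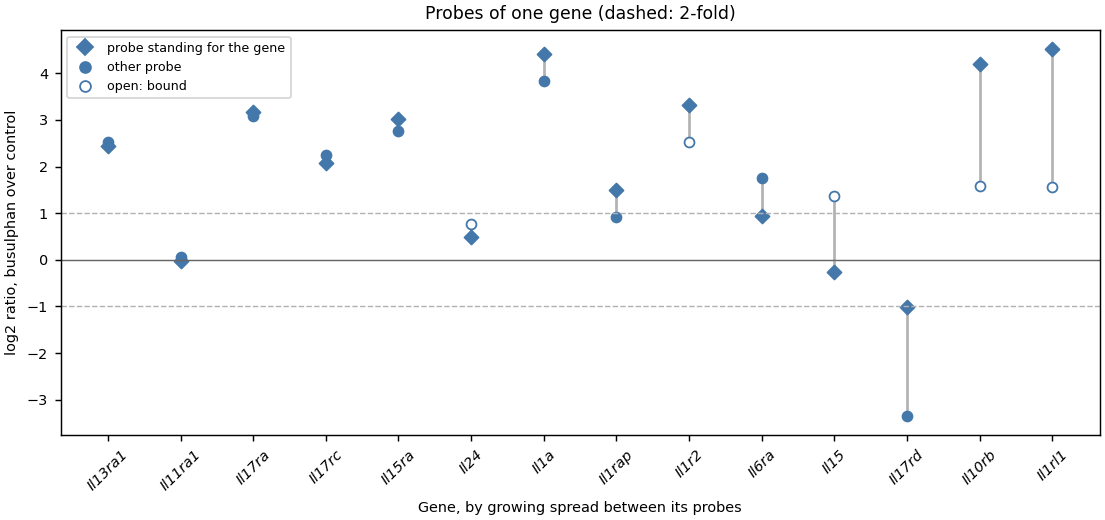
Log2 ratio of busulphan over control for each compared probe of the 14 genes with at least 2 such probes, ordered by the spread between probes. Diamonds are the probe that stands for the gene and open symbols are bounds. Il13ra1, Il17ra and Il15ra have probes close together, and Il15 is on both sides of 0.

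The genes that carry interleukin signals inward were counted from a list of 50, of which 47 were on the array and compared. Of these, 28 were higher in busulphan (59.6%), 8 lower (17.0%) and 11 called neither way, beside 31.3 and 29.5 percent of all genes. The median log2 ratio of the list was 1.64. Some of these calls rest on the probe that stands for the gene. Irak4, counted as lower, gave -2.40 on that probe and 1.75 on the other. Pias1, Jak3 and Stat5b, called neither way, each had another measured probe that was lower, at -3.23, -2.35 and -1.14. A further probe of Stat5b gave a bound of 2.26. Among genes without a saturated spot, the 4 highest were Cish, a feedback inhibitor of STAT5, from 612 to 7006 (3.73), Nfkbiz, an NF-kB cofactor that the Il6 promoter uses, from 488 to 5515 (3.71), and the NF-kB subunits Nfkb1, from 248.6 to 2547 (3.57), and Nfkb2, from 165 to 1686 (3.56). The lowest were Socs7, from 8617 to 104 (-6.17), Stat4, the STAT of IL-12, from 15860 to 235 (-5.87), and the brakes on IL-1 receptor signalling Irak3, from 1880 to 225 (-2.85), and Sigirr, from 402 to 54.4 (-2.68). Nfkbia, an inhibitor of NF-kB that NF-kB itself induces, was saturated in busulphan and at least 8.91-fold higher, so its place in this order is not known. Under spike-in scaling 22 of the list were higher and 8 lower.

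Other cytokines and receptors share chains or relatives with the interleukins under other names. Of 15 such partner genes compared, 5 were higher (33.3%) and 4 lower (26.7%), near the shares of all genes, and the median was 0.06. Osmr, which pairs with Il31ra and with gp130, had 122 in control and 2497 in busulphan, a log2 ratio of 4.57, opposite to Il31ra. The growth factors of granulocytes and macrophages stood with Il6, since Csf3 reached 112 in busulphan, a log2 ratio of 3.49, and Csf2 was at least 10.4-fold higher, from 5.45 to 67.5. The oncostatin M ligand Osm was at 2.37, and Tslp, an epithelial cytokine that uses Il7r, was at least 6.37-fold higher. Among the lower genes were Epor, the erythropoietin receptor (-3.08), and Cntf and Cntfr, the ciliary neurotrophic factor (-1.43) and its receptor (-2.65).

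Promoter sequence was available from RefSeq (GRCm38.p6) for 42 of the 54 compared genes, as the 250 bases before each start. Il6 is shown because it is among the highest ligands and held both motifs marked here, and shorter windows stand for 2 higher genes and a lower one. Capitals mark TGANTCA, the AP-1 motif, and GGANTTNCC, an NF-kB motif, searched on both strands.
Il6, chr5:30012864-30013099, plus strand: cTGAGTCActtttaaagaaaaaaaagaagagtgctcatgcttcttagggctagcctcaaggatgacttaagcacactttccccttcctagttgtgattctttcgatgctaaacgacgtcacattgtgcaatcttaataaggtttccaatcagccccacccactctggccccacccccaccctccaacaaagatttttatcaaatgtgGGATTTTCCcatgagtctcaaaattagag
Il1a, chr2:129309973-129310004, minus strand: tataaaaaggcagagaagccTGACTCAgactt
Ifnlr1, chr4:135686207-135686239, plus strand: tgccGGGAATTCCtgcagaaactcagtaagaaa
Il13, chr11:53634809-53634857, minus strand: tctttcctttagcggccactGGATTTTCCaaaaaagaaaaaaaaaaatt
The NF-kB motif was found in 2 of 16 members that were higher (Ifnlr1 and Il6), 1 of 11 that were lower (Il13) and 2 of 15 called neither way. It was found in 3.65% of the 27025 genes with a promoter, where a match in any promoter of a gene counted. The AP-1 motif was found in 4 of 16, 4 of 11 and 4 of 15, and in 7.82% of all genes with a promoter. Of 2 further motifs searched, TGACGTCA of CREB was in no member and in 1.77% of all genes with a promoter. TTNNGNAA of C/EBP was in 8 of 16, 7 of 11 and 5 of 15 and in 40.3% of all genes with a promoter. Higher and lower members both held NF-kB and AP-1 letters, and a match is a description of letters and not of binding.

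The markers of several cell types differed between the libraries. Their counts, here and in the next paragraph, stand beside 31.3% of all genes higher and 29.5% lower. All 14 Sertoli cell markers compared were above background on both arrays, 13 were higher in busulphan and none lower. Their median log2 ratio was 3.58 and the summed signal of the 13 without a saturated spot, in units of each array's 75th percentile, was 11.0 in control and 93.8 in busulphan. Of 7 spermatid markers all were lower, 5 of them as bounds, and the median was -6.16. Over the 2 spermatid markers without a saturated spot the sum was 64.6 in control and 0.731 in busulphan. Of the spermatocyte markers, 7 of 9 were lower. Control and busulphan thus differed widely in germ cell RNA, and the part of this in the interleukin results was not tested.

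Macrophage markers were mostly higher in busulphan. Of 13 compared, 9 were higher and 1 lower, and the median was 2.95. The lower one was Aif1, saturated in control, and over the 13 markers on the array that were not saturated the sum was 1.42 in control and 8.76 in busulphan. Cd163 was not well above background on either array. T and NK cell markers were divided. Of 10 compared, 1 was higher and 5 lower, and the sum was 4.22 in control and 0.59 in busulphan. Most of that sum was Cd3d, which went from 3467 to 35.1. The log2 ratios of Cd3e (0.46), Cd247 (0.14) and Cd5 (0.31) lay within 2-fold, as did the bound of Cd3g, and Lck was 4.25-fold higher. Cd8a, Gzmb and Prf1 were not well above background on either array. Of 5 B cell markers 3 were lower (sum 0.125 in control, 0.0539 in busulphan), and of 8 mast cell and granulocyte markers 2 were lower (0.606 and 0.346). Blk and Cd79a of the B cell list and Elane, Ms4a2 and S100a8 of the mast cell and granulocyte list were not well above background on either array. Other somatic markers were mixed, with 1 of 6 Leydig cell markers higher and 1 lower, and 1 of 5 peritubular myoid markers higher and none lower. Of 8 endothelial markers, 2 were higher (25.0%) and 3 lower (37.5%), near the shares of all genes. The sums were 1.14 in control and 3.11 in busulphan for Leydig cells, where Lhcgr was not well above background on either array. Most of the Leydig sum in busulphan was Star, which went from 202 to 2043. Cyp11a1 (0.11), Cyp17a1 (-0.24), Hsd3b1 (0.48) and Hsd3b6 (-0.49) lay within 2-fold on the log2 scale, and Hsd17b3 was lower (-1.93). For endothelium the sums were 6.60 and 13.7, most of the latter from Robo4, which went from 1573 to 9796. For myoid cells they were 49.2 and 65.3. The part of these cells in the interleukin results was not tested.

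**Figure D4:**
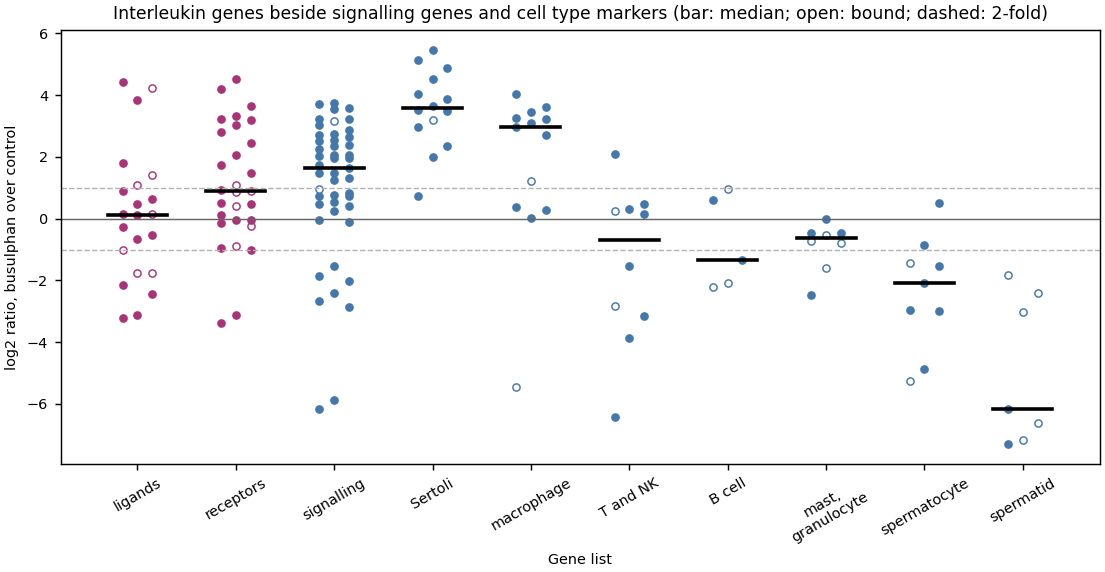
Log2 ratio of busulphan over control for the compared ligands and receptors (purple) beside signalling genes and cell type markers (blue), with a bar at each median, open points for bounds and dashed lines at 2-fold. Receptors (median 0.89) lie between ligands (0.13) and signalling genes (1.64), and Sertoli (3.58) and macrophage (2.95) markers lie above them.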

How the data were processed

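Per the file headers, the deposited intensity values are background-subtracted signals from Agilent Feature Extraction, version 11.5.1.1. The authors' deposited log2 table is log2 of that signal less an offset for each array (control 10.03, busulphan 9.816). From the signals, log2 values were taken minus each array's 75th percentile over non-control probes, 1046 in control and 905 in busulphan. Probes well above background on at least 1 array were kept. The probe with the highest mean stands for its gene. A bound compares the bright spot with the dim spot, or, if higher, with the array's lowest signal above background, 7.50 in control and 6.26 in busulphan. A bound that came to point away from the bright array was set to no change. Calls were a fold of 2 either way, since 1 array per group allows no test. All members could be named, with the 4 highest and 4 lowest of the signalling list. Gene names came through accessions for 13300 probes, and 91 of 97 member probes matched a RefSeq symbol. The members, lists and rules were chosen with earlier results of these data known. Counting was tested on simulated data with changes put on bright probes only, so calls from dim spots and bounds were not covered. Software was Python 3.11.15, pandas 2.3.3, numpy 2.4.6, R 4.3.3 and limma 3.58.1. The alternatives tried are in the closing section. The exon or UTR each probe falls in is not given in the sources used here. One partner gene is not reported here.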

Additional observations from a re-analysis of the deposited data

How the results depend on the processing

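The number of arrays, 1 per group, limits every value, and dim signals limit most ligands. No paired analysis was possible because each group has 1 array, and the number 1 that both carry comes from their order only. No member called at 2-fold changed sign under any alternative run. For genes held as bounds this was fixed in advance wherever bounds were used. A bound that came to point the other way was set to no change. Over 526 gene values, 389 moved by less than the software's spot error and 137 by more. Higher ligands, 6 in the report, numbered 3 with probes above background on both arrays, with spike-in scaling and at 4-fold. Lower ligands, 7 in the report, numbered 3 with normexp correction, 4 with probes above background on both arrays and 4 at 4-fold. Lower receptors, 3 in the report, numbered 5 with median scaling, with housekeeping scaling and at 1.5-fold, and 7 with spike-in scaling. The ligand median of 0.13 became -0.22 with no filter on dim probes and -0.75 with spike-in scaling. The receptor median of 0.89 became 0.37 with normexp correction, 1.11 with quantile normalization, 0.66 with housekeeping scaling, 0.00 with spike-in scaling, and 1.49 both with probes above background on both arrays and with bounds replaced by measured values. The receptor value of 0.00 was a bound set to no change and not a measured ratio. The median of all genes shifted by -0.17 with median scaling, 0.12 with quantile normalization and -0.22 with housekeeping scaling. The counts of signalling genes stayed within 1.5 times under all alternatives run. The cause of these changes was not tested.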
